A study of Neurospora crassa with 6 samples.

Results

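The control strain of this study, Neurospora crassa 328-4 (ras-1bd, mating type A, genotype given as wt), was examined on its own to describe which transcripts a culture growing in constant light holds, at what level, and how far replicate cultures differ. Its 3 cultures were chosen by their label and are 3 of the 6 samples of the series, the other 3 being of a strain with a period-2 (prd-2) mutation, prd-2::barR, whose values are not compared here. Each culture was started from a mycelial disc of 6 mm and shaken at about 100 RPM for 48 h at 25 °C in Bird medium with 1.8% glucose, under constant light. The control strain carries the ras-1 allele bd, as the mutant does, so it is a control for prd-2 and not an unmodified wild type. All 3 cultures are of that 1 strain, and no time course was labelled, so the values are levels at harvest and not rhythms. Polyadenylated RNA was sequenced, and the deposited table gives 1 value for each of 9730 genes and culture in FPKM, fragments normalised to transcript length and to the size of the library. The cultures are called 1, 2 and 3 after the replicate number in their titles.

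Neurospora crassa is a filamentous fungus that grows as a network of branched hyphae, the mycelium, and can form aerial hyphae and orange asexual spores, the conidia. Light acts in it through the White Collar complex, which also drives the clock gene frq, and it induces the carotenoid pathway. Many transcripts abundant in mycelium were first named as clock-controlled genes (ccg), because their levels cycle when the fungus is kept in darkness. Because FPKM are scaled to transcript length, levels of different genes can be set side by side.

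Summed FPKM lay between 657467 and 672543 per culture, and the median gene had between 15.1 and 15.2 FPKM. How many fragments each value rests on is unknown. Relative depth was estimated from 72 genes above 0 but below 0.15 FPKM in all 3 cultures. For cultures 2 and 3 a factor against culture 1 was fitted. Ratios between cultures, divided by it, were to fall near ratios of whole numbers up to 6. The fitted factors were 1.107 for culture 2 and 1.104 for culture 3, the FPKM worth of a fragment relative to culture 1. At these factors 91.7% and 77.8% of the ratios fell within 0.5% of such whole-number ratios. These shares come from the fit itself and do not test it. Culture 1 was the deepest by this estimate. No 2 cultures held an identical value above 0 for any gene. Culture 1 stood apart from the other 2, as described below, and the main counts, shares and measures of spread are also given with 1 culture left out.

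A small set of genes held a large part of the signal. Between 238 and 258 genes sufficed to make up 50% of the summed FPKM of a culture. The 10 most abundant genes of each culture held 14.4%, 13.4% and 13.2% of the sum in cultures 1, 2 and 3, and the 100 most abundant held 35.8%, 34.6% and 34.3%. In terms of the mean over cultures, 100 genes (1.03% of the table) reached 1000 FPKM, 262 lay between 300 and 1000 FPKM, and 2542, the largest of the level classes used, lay between 10 and 30 FPKM. The plot of level by rank shows the curves of the 3 cultures lying on each other except among the most abundant genes.

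**Figure D1:**
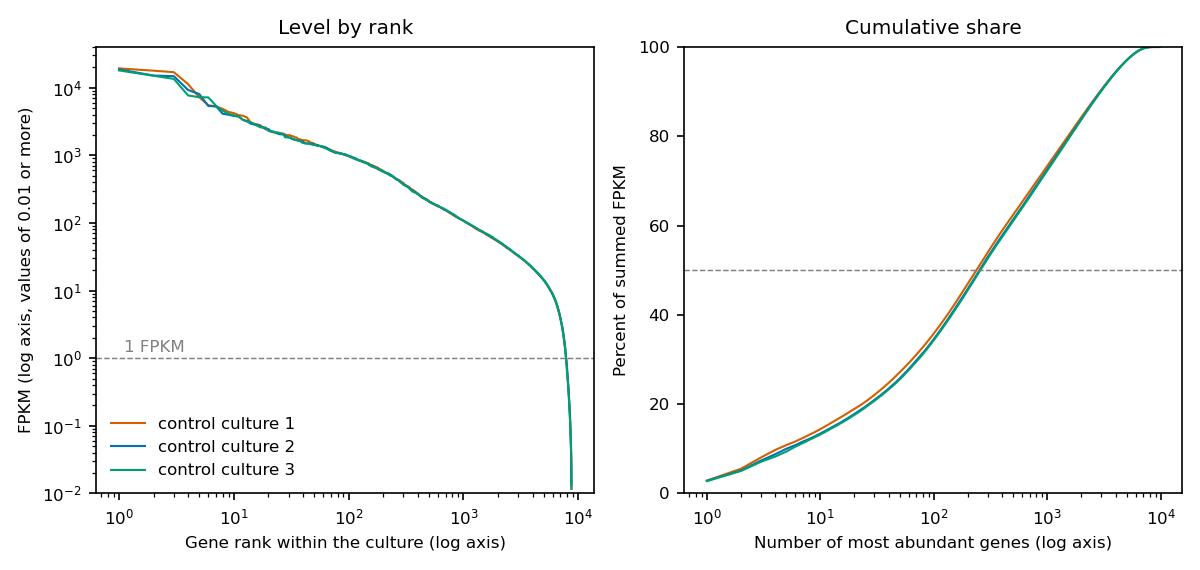
Left, FPKM of each gene against its rank within a culture, both axes logarithmic, for the 3 control cultures, with values of 0.01 FPKM or more drawn. Right, the percent of summed FPKM held by the given number of most abundant genes, with the grey line at 50%, which the cultures reach at 238 to 258 genes.

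The most abundant transcript was that of ccg-1 (NCU03753), a clock-controlled gene known for its repression by glucose. It measured 17852, 18639 and 18020 FPKM in cultures 1, 2 and 3, with a mean of 18171 ± 415 FPKM (SD, n = 3), and it made up 2.74% of the summed FPKM. NCU06110, a gene with no symbol whose annotated span overlaps that of NCU06111, ranked next by its mean, with 19295, 14810 and 13494 FPKM. Its range encloses that of ccg-1, so the order of these genes is not resolved by 3 cultures, and in culture 1 NCU06110 was the higher. The third, nmt-1 (NCU09345), whose fission yeast namesake belongs to thiamine synthesis, measured 16971, 15136 and 15035 FPKM and also lay inside the range of NCU06110. A wide step separated these 3 from ccg-16 (NCU05495), with 11272, 9250 and 7245 FPKM, and no culture had ccg-16 above its level of any of the 3.

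Places 5 to 10 were held by NCU16635, NCU04482, tef-1, cmt, gpd-1 and ccg-6, with mean levels from 7647 down to 3926 FPKM. The gene tef-1 (NCU02003), which encodes the translation elongation factor EF-1 alpha, was the steadiest of the 20 most abundant genes, with 5273, 5358 and 5399 FPKM and a coefficient of variation (CV, the SD as a percent of the mean) of 1.20%. The copper metallothionein gene cmt (NCU05561, also ccg-12), a small metal-binding protein, measured 4864, 4114 and 4568 FPKM, and its span overlaps that of NCU05560. For gpd-1 (NCU01528, also ccg-7), which encodes the glycolytic enzyme glyceraldehyde-3-phosphate dehydrogenase, the values were 5496, 3984 and 3758 FPKM, with culture 1 above both others.

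Further down, places 11 to 20 ran from 3763 to 2286 FPKM by mean level. They included emp-7 (NCU10042), named for the Embden-Meyerhof pathway of glycolysis, hex-1 (NCU08332), the main protein of the Woronin bodies that plug septal pores after injury, and the cytosolic ribosomal protein gene crp-7 (NCU08627). Histone H3 (hH3, NCU01635) and aac (NCU09477), the mitochondrial ADP/ATP carrier, were there as well. The span of hex-1 overlaps that of NCU16405, so its value is uncertain, as are those of NCU06110 and cmt. The other 5 of these 10 places, NCU00979, NCU05498, NCU08055, NCU09476 and NCU05490, are genes with no symbol.

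Of the 20 genes, 12 have a symbol of their own and 5 have ccg as symbol or synonym. The place of the boundary is not sharp, since rank 20 had a mean of 2286 FPKM and rank 21 of 2227 FPKM. Within single cultures 17 of the 20 genes were among the 20 most abundant of all 3 cultures. The plot of these genes by culture shows that their CV ran from 1.20% for tef-1 to 27.1% for emp-7, with a median of 6.67%.

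**Figure D2:**
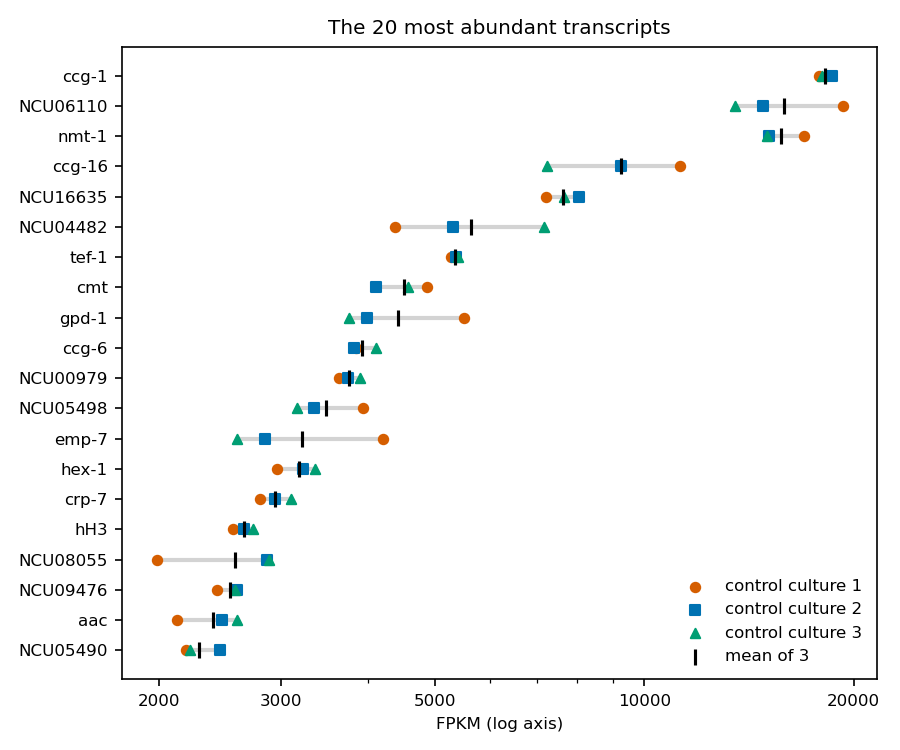
FPKM (log axis) of the 20 genes with the highest mean, in the 3 control cultures (coloured symbols), with the mean as a black bar and the range as a grey line. The range of NCU06110 encloses those of ccg-1 and nmt-1, and NCU06110, ccg-16, NCU04482, gpd-1, emp-7 and NCU08055 show the widest spread.

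To place functions on this scale, gene lists were described by their counts and medians beside those of all 9730 genes, whose median was 15.1 FPKM and of which 79.3% reached 1 FPKM in all 3 cultures. Genes with a symbol differ from the rest in level, with a median of 33.8 FPKM over 1118 genes and of 13.8 FPKM over the others, and 94.6% of them reached 1 FPKM in all 3 cultures. Since every list is made of named genes, the higher of these medians is the nearer background. No test was applied to the lists. Overlapping genes can share fragments, and among the genes named below pgk, adh-1, ace-8, emp-3, tba-1, al-3, con-6, qa-3, qa-Y, pks-1, nuo6.6, tca-16, tim17, crp-15 and hsp30 overlap another gene, so their values are uncertain.

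**Figure D3:**
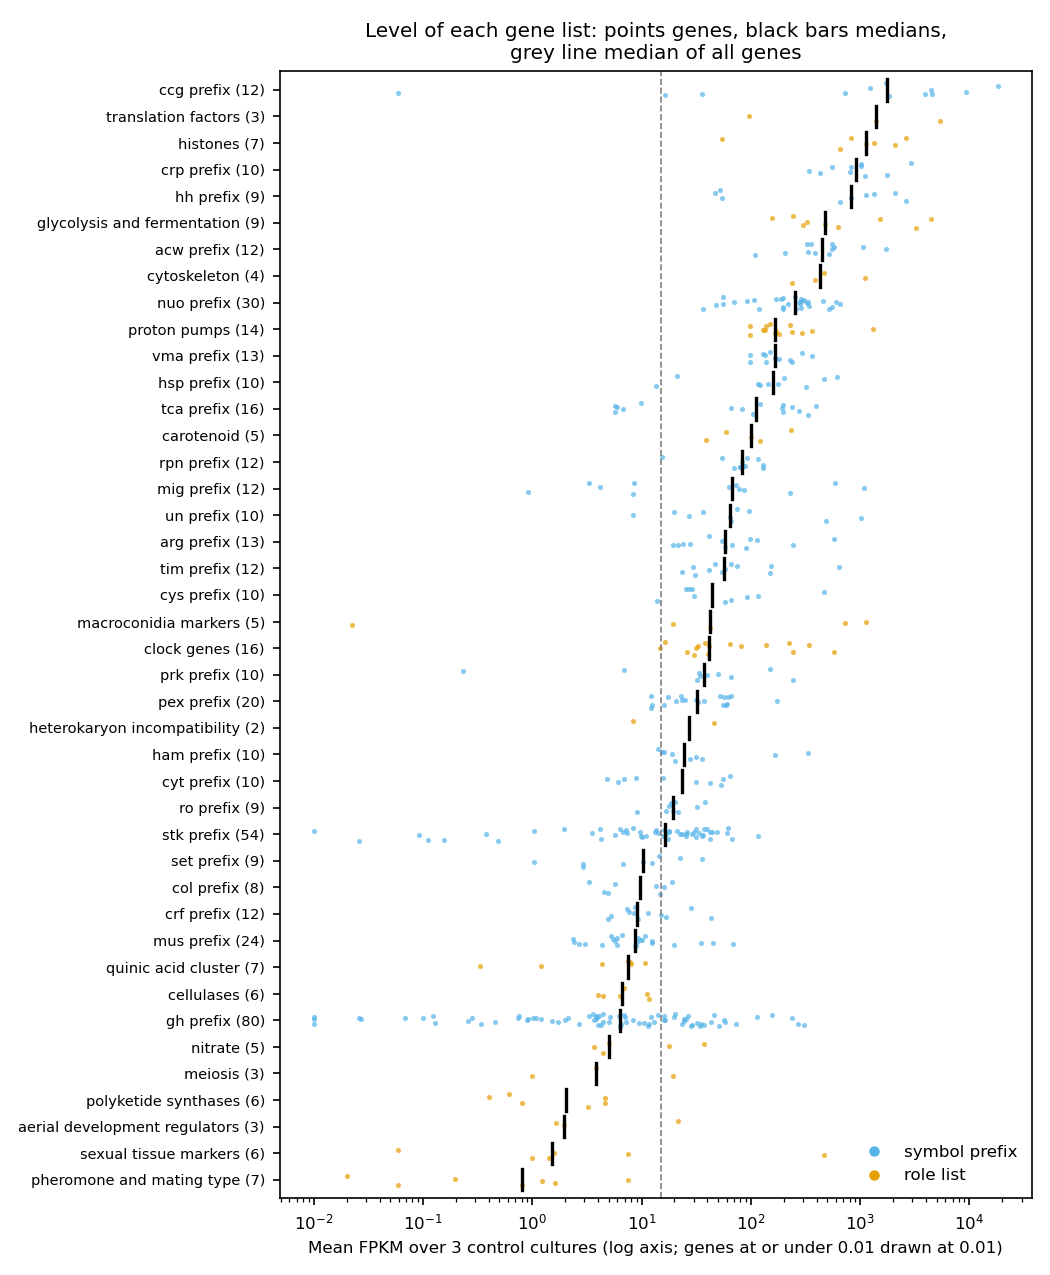
Mean FPKM (log axis) of each gene in the symbol-prefix families (blue) and role lists (orange), ordered by median (black bars), with the number of genes in parentheses and the median of all genes as a grey dashed line. The ccg genes, translation factors and histones stand at the top, with medians above 1000 FPKM, and mating and sexual tissue genes at the bottom.

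The 12 ccg genes had the highest median of all the lists by mean level, 1777 FPKM, and 8 of them exceeded 1000 FPKM. That place was not held in every culture. The ccg median was 2587, 1492 and 1312 FPKM in cultures 1, 2 and 3, and that of the translation factors 1448, 1363 and 1402 FPKM. The ccg list was thus the higher of the pair in cultures 1 and 2, by the most in culture 1, and the lower in culture 3. Levels within the ccg list differed widely. At the low end, ccg-4 (NCU02500), a pheromone precursor gene, measured 0.0975 and 0.0809 FPKM in cultures 1 and 2 and was listed at 0 in culture 3. Between these lay ccg-8 at 16.4 FPKM and ccg-9 at 35.7 FPKM, close to the level of a typical gene. The hydrophobin gene eas (NCU08457, also ccg-2), which encodes the water-repellent coat of conidia, measured 685, 664 and 833 FPKM.

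Genes of protein synthesis and chromatin followed. All 10 genes with crp as symbol or synonym, for proteins of the cytosolic ribosome, lay above 300 FPKM in every culture, from 343 FPKM for crp-15 to 2943 FPKM for crp-7, with a median of 923 FPKM. These 10 are the ribosomal protein genes that carry such a name in the RefSeq table, and others of the ribosome are not in the list. Of the translation factors, eif5A averaged 1404 FPKM, against 5343 FPKM for tef-1 and 96.2 FPKM for un-10, which encodes a subunit of initiation factor 3.

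The 7 histone genes of the list split by kind. The genes for the core histones hH3, hH2A, hH2B and hH4-1 averaged 2649, 2077, 1343 and 1126 FPKM, hH1 (linker histone) 828 FPKM and the second H4 gene hH4-2 651 FPKM. The variant hH2Az averaged 54.3 FPKM, and the variants hH3v and hH4v, counted with the hH symbol prefix, 46.5 and 52.3 FPKM. Thus each variant gene lay below the lowest of the other 6 by more than their spread between cultures. How fragments matching several genes were assigned is not given in the sources used here, so the split between hH4-1 and hH4-2 is uncertain. The spans of hH2A, hH2B, hH2Az and hH4-2 each overlap another gene.

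Genes of energy metabolism varied in level by pathway. The 30 nuo genes, for subunits of mitochondrial complex I, were all above 30 FPKM, from 36.3 FPKM for nuo21.3c to 658 FPKM for nuo6.6, with a median of 254 FPKM. The 16 tca genes, of the citric acid cycle, formed separate groups: 11 had 66.5 FPKM or more, up to 392 FPKM for tca-16, and 5 (tca-2, tca-10, tca-11, tca-12 and tca-13) had between 5.67 and 9.88 FPKM. The 9 listed genes of glycolysis and fermentation ranged from 155 FPKM for emp-3 to 4413 FPKM for gpd-1. Among them cfp, the pyruvate decarboxylase that leads to ethanol, averaged 1505 ± 256 FPKM and adh-1, an alcohol dehydrogenase, 480 ± 200 FPKM (SD, n = 3 each).

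The listed genes of proton pumps, cell wall proteins and the cytoskeleton all lay above the median of all genes. No list of other transporters was made. The plasma membrane proton pump gene pma-1 (NCU01680), which energises nutrient uptake, measured 1188, 1315 and 1428 FPKM, and its span overlaps that of NCU01681. All 13 vma genes, for the vacuolar proton pump, lay in a narrow band from 98.2 to 366 FPKM. Each of the 12 acw genes, which encode proteins anchored in the cell wall, had a mean above 100 FPKM, from 109.6 FPKM for acw-10 to 1714 FPKM for acw-1 (ccg-15). For the cytoskeleton, actin (act) averaged 1110 ± 26.7 FPKM (SD, n = 3) and the tubulin genes Bml, tba-1 and tba-2 470, 388 and 237 FPKM.

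Chaperone genes (hsp) ran from 13.6 FPKM for hsp78 to 609 FPKM for hsp70-1, with the heat-inducible hsp30 at 21.2 FPKM. Quieter still were groups that act on the genome. The 24 mus genes, named for sensitivity to mutagens and many of them of DNA repair, had a median of 8.76 FPKM, and all 24 reached 1 FPKM in all 3 cultures. The 12 crf genes, for chromatin remodelling factors, had a median of 9.02 FPKM. Serine-threonine kinase genes (stk) were more scattered, from 117 FPKM for stk-50 to 0 for stk-41, and 46 of 54 reached 1 FPKM in all 3 cultures.

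The listed genes of light sensing (wc-1, wc-2 and vvd) and the 5 listed carotenoid genes all reached 1 FPKM in all 3 cultures. So did 94.6% of all genes with a symbol. The cultures were grown in light and none of them in darkness, so the part of light in these levels was not tested. The photoreceptor gene vvd (NCU03967), whose protein dampens the light response, had the highest level among 16 clock genes, with 587, 579 and 581 FPKM. Its CV was 0.738%. The clock gene frq (NCU02265) measured 38.0, 37.7 and 37.7 FPKM, and its activators wc-1 and wc-2 averaged 31.3 and 40.2 FPKM. The lowest of the clock list was frh, the RNA helicase partner of FRQ, at 14.6 FPKM. The kinase gene ck-1a (NCU00685), whose product phosphorylates FRQ, averaged 338 FPKM and ranked 330 of 9730. The labels give the genotype of this strain as wt and name no prd-2 mutation in it. The locus NCU01019, taken as prd-2 from knowledge of the study, averaged 26.2 ± 1.31 FPKM (SD, n = 3). It ranked 3529, and its span overlaps that of NCU01021.

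CVs of the 16 clock genes had a median of 2.60%, against 6.40% over the 7852 genes with a mean of at least 1 FPKM. The CV falls with level, and genes between 30 and 100 FPKM had a median CV of 5.32%. In the carotenoid pathway, al-2 (phytoene synthase) averaged 234 FPKM, al-1 (phytoene desaturase) 121 FPKM, ylo-1 100.02 FPKM, al-3 59.1 FPKM and cao-2 39.2 FPKM. Of these, al-1 was the most variable, with 102, 125 and 137 FPKM, and cao-2 the least, with a CV of 0.619%.

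Glycoside hydrolase genes (gh) ranged from 0 to 306 FPKM, and genes of the quinic acid cluster from 0.335 to 10.7 FPKM. The gh genes, named for an enzyme class that can break down polysaccharides, were 80 in number. They were gathered by symbol and not by role, so their levels do not describe the use of carbon sources alone. Their median was 6.30 FPKM. Of the 80, 61 reached 1 FPKM in all 3 cultures, 27 lay at or above the median of all genes, 5 had a mean of at least 100 FPKM and 3 were listed at 0 in all 3 cultures. The most abundant was gh13-1 at 306 FPKM. Among 6 cellulase genes, the cellobiohydrolases gh6-2 and cbh-1 led with 11.7 and 11.2 FPKM, and gh7-2 had the lowest mean, 3.99 FPKM. The list does not hold gh6-1 and gh7-3, which carry the same family names and were listed at 0 in every culture. In the quinic acid cluster, which serves growth on quinate, levels ran from 0.335 FPKM for qa-X and 1.19 FPKM for qa-4 to 10.7 FPKM for the repressor gene qa-1S.

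Markers of other developmental stages were mixed. Of 5 genes linked to macroconidia, con-8 measured 1217, 1062 and 1083 FPKM and eas 664 FPKM or more, con-10 and con-6 averaged 42.0 and 19.5 FPKM, and con-13 was listed at 0 in cultures 1 and 3 with 0.0676 FPKM in culture 2. Their sums were 1966, 1795 and 1968 FPKM in cultures 1, 2 and 3. Among regulators of aerial development, fl averaged 21.4 FPKM and acon-2 and acon-3 1.95 and 1.65 FPKM. The markers were thus at high, moderate and near-zero levels within 1 list, and the part of aerial or spore-forming cells in these values was not tested.

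Sexual genes were low with 1 exception. Of 6 markers, asd-3, poi-2, spo11, ccg-4 and mfa-1 had means between 0.0595 and 7.50 FPKM. The exception, asd-1 (NCU05598), a gene known for its part in ascus development, measured 679, 425 and 304 FPKM, which made up nearly all of the list's sums of 689, 439 and 315 FPKM. The mating type gene matA-1 was detected in every culture, at 2.04, 1.62 and 1.21 FPKM, in a strain labelled mating type A. Its neighbours matA-2 and matA-3 were at 0 in some cultures and did not exceed 0.423 FPKM. The pheromone receptor genes pre-1 and pre-2 averaged 0.801 and 1.23 FPKM. The 6 polyketide synthase genes (pks), of secondary metabolism, had means from 0.398 FPKM for pks-2 to 4.64 FPKM for pks-1.

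At the other end of the scale, 807 genes (8.29% of the table) were listed at 0 in all 3 cultures. A further 210 were listed at 0 in 2 cultures and 200 in 1 culture, and 966 were above 0 in some culture but below 1 FPKM in all. A value of 0 in such a table can be a count of 0 or a failed estimate, and with unknown depth no upper limit can be set. Of the genes listed at 0 in some but not all cultures, the one with the highest value in any culture was NCU06641, a gene outside the naming rule chosen after its value was seen, with 28.5 FPKM in culture 1 and 0 in the other 2.

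Genes listed at 0 in all cultures rarely had a symbol. These were 4 of 807 (0.496%), against 11.5% in the whole table: the glycoside hydrolase genes gh61-4, gh6-1 and gh7-3 and the kinase gene stk-41 (NCU06421). Among genes with a mean of at least 1000 FPKM the share with a symbol was 41.0%. The share rose in nearly every step between, with 4.76% for genes above 0 and below 1 FPKM, 10.8% from 3 to 10 FPKM, 10.3% from 10 to 30 FPKM, 14.0% from 30 to 100 FPKM and 33.2% from 300 to 1000 FPKM.

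The genes at 0 lay together in the genome more than the others did. In the gene order of the NC12 assembly, 369 of the 807 (45.7%) had an adjacent gene that was also at 0 in all 3 cultures, compared with 1017 of the 8922 other placed genes (11.4%). They formed 546 runs, of which 438 were single genes, 65 were pairs and 43 held 3 or more genes, with 239 genes in these longer runs. The longest run held 16 genes, from NCU07627 to NCU07642, and the next 15, from NCU08236 to NCU08249, both chosen after the runs were seen. Across all 9722 adjacent pairs the levels had a Spearman correlation of 0.23, which is a description over genes that share libraries. Whether genes within a run are similar in sequence, so that fragments could not be assigned among them, was not tested.

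The next question was how well the 3 cultures repeat each other. Over the 7852 genes with a mean of at least 1 FPKM, the median CV was 6.40%, with 25% of the genes under 3.77% and 25% over 10.7%. In 2909 genes (37.0%) it was below 5%, and in 82 genes it was above 50%. Spread fell with level up to about 30 FPKM and then stayed flat: the median CV was 16.7% from 1 to 3 FPKM, 8.28% from 3 to 10 FPKM, 6.06% from 10 to 30 FPKM, and between 5.09% and 5.32% in each of the 4 classes above.

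**Figure D4:**
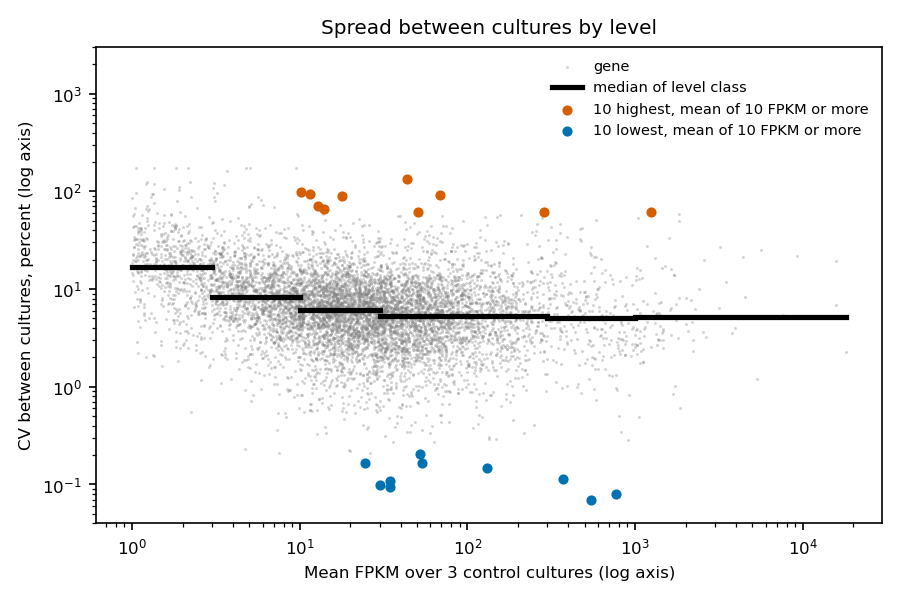
CV between the 3 control cultures in percent against mean FPKM, both axes logarithmic, for genes with a mean of at least 1 FPKM (grey), with medians of the level classes (black bars). The 10 highest CVs among genes with a mean of at least 10 FPKM (orange) lie from 61.3% to 134%, and the 10 lowest (blue) from 0.0695% to 0.206%.

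The steadiest gene with a mean of at least 10 FPKM was crp-10 (NCU00489), with 548.1, 548.7 and 548.9 FPKM and a CV of 0.0695%. It overlaps NCU00490. The other 9 of the 10 lowest CVs belonged to genes with no symbol, NCU00477, NCU12111, NCU00578, NCU05629, NCU04910, NCU00712, NCU08385, NCU05646 and NCU02690, at levels from 24.6 to 768 FPKM. Of these, NCU12111, NCU00578 and NCU08385 also overlap another gene. The 10 CVs are the smallest of 5755 over 3 cultures each, and they do not mark the genes as stable.

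Spread was not shared evenly by the cultures. Culture 1 was the one farthest from the mean of the 3 on the log2(FPKM + 1) scale for 3787 of the 7852 genes (48.2%), culture 3 for 29.9% and culture 2 for 21.9%. Cultures 1 and 2 differed by at least 2-fold on that scale for 72 genes, cultures 1 and 3 for 92 genes, and cultures 2 and 3 for 17 genes. Culture 1 was higher than culture 2 for 54 of the 72 genes and lower for 18. It was higher than culture 3 for 76 of the 92 genes and lower for 16. Taken by pairs, the median CV was 5.55% for cultures 1 and 2, 6.50% for cultures 1 and 3, and 4.04% for cultures 2 and 3. Pearson correlations of log2(FPKM + 1) across the 7852 genes were 0.991, 0.988 and 0.996 for the same pairs.

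All of the 10 most variable genes with a mean of at least 10 FPKM were highest in culture 1, at 2.61 to 11.2 times the mean of cultures 2 and 3. Because that mean includes culture 1, the filter admits genes that are high there, and 6 of the 10 (NCU01348, NCU00829, tcu-1, NCU06137, NCU05567 and NCU10051) averaged under 10 FPKM in cultures 2 and 3. With a filter on the median of the 3 cultures, which 1 culture alone cannot pass, 6 of the 10 were retained and 9 of that 10 were highest in culture 1. Under either filter, a CV of FPKM rises more for a culture that is high than for one that is low by the same fold. How many of the variable genes are highest in a culture is thus partly set by the measure. The most variable was NCU01348, with 110.4 FPKM in culture 1 and 12.2 and 7.61 FPKM in cultures 2 and 3. Next came a pair of adjacent genes, NCU00829, with 21.8, 4.01 and 4.76 FPKM, and tcu-1 (NCU00830), a copper transporter gene, with 23.8, 4.73 and 5.83 FPKM. Both showed the same pattern, 1 high culture and 2 alike.

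An abundant gene of this group was ccg-14 (NCU07787), with 2109, 937 and 677 FPKM. The others were NCU08397, NCU06137, NCU05567, NCU10051, NCU00878 and NCU09761, of which the last overlaps NCU09762. Just outside the 10 was ccg-13 at a CV of 58.9%. In cultures 2 and 3 alone the CVs of these 10 genes were between 1.05% and 32.6%. These genes were chosen by a spread that includes culture 1, so a fall without it was built into the choice. None of them was among the 10 highest CVs in cultures 2 and 3 alone, for genes with a mean of at least 10 FPKM there. Those other CVs ran from 31.3% to 41.0%.

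Of the 24 genes with a mean of at least 10 FPKM and a CV above 50%, 22 were highest and 2 lowest in culture 1, and 7 averaged under 10 FPKM in cultures 2 and 3. With the filter on the median these were 19 genes, of which 17 were highest and 2 lowest in culture 1. A CV of FPKM passes 50% more readily when a culture is high than when it is low, so both splits are partly set by the measure. With the filter on the mean, the 2 lowest were aod-1 (NCU07953), the alternative oxidase of mitochondria, with 30.8, 70.2 and 109 FPKM, and ci-1 (NCU05001), with 109, 333 and 388 FPKM, both named after their values were seen. Below that level, the nitrite reductase gene nit-6 (NCU04720) measured 10.5 FPKM in culture 1 and 0.300 and 0.259 FPKM in cultures 2 and 3, and the nitrate reductase gene nit-3 (NCU05298) 7.63, 3.81 and 3.53 FPKM. The regulators nit-2, nit-4 and nmr of the same list had CVs between 2.11% and 7.24%.

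Whole lists also shifted between culture 1 and the others. Among all 7852 genes culture 1 was the highest for 35.7% and the lowest for 42.8%, and its median difference from the mean of cultures 2 and 3 was -0.015 log2 units. All 9 listed genes of glycolysis and fermentation were highest in culture 1, with a median difference of 0.51 log2 units. They were matched by symbol, so the list need not hold every gene of these pathways. Summed FPKM of the 9 genes was 14185 in culture 1 and 9919 and 9678 in cultures 2 and 3. The values of gpd-1 given above, and those of emp-7 (4212, 2845 and 2592 FPKM), cfp (1767, 1255 and 1491 FPKM) and pgk, for phosphoglycerate kinase (772, 580 and 529 FPKM), show this pattern, while emp-1 (302, 299.6 and 294 FPKM) hardly differed.

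Some lists of biosynthesis and mitochondria were lower in culture 1, though not all. Culture 1 was the lowest for 12 of 12 tim genes, of the import machinery of the mitochondrial inner membrane, and for 12 of 13 arg genes, named for arginine. The arg list includes pro-3 and pro-4 through their synonyms arg-8 and arg-9. Culture 1 was also the lowest for 9 of 10 cyt genes, named for cytochrome defects, and for 12 of 16 tca genes. Median differences of the tim, arg, cyt and tca lists were -0.20, -0.25, -0.21 and -0.12 log2 units. The 30 nuo genes of complex I did not share this: culture 1 was the lowest for 12 and the highest for 12, with a median difference of 0.002 log2 units. As an example, arg-1 measured 522, 612 and 613 FPKM and tim17 48.4, 59.2 and 67.4 FPKM. Cultures 2 and 3 also differed in some of these lists: all 12 tim genes were lower in culture 2 than in culture 3, with a median difference of -0.13 log2 units, and 11 of 12 were so after quantile normalization. Over all 7852 genes 53.6% were lower in culture 2 than in culture 3, with a median difference of -0.009 log2 units.

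Ribosomal protein and histone genes were lower in culture 1 by small amounts. All 10 crp genes and all 7 histone genes of the role list were lowest there, with median differences of -0.09 and -0.06 log2 units. With median centring these counts became 8 of 10 and 5 of 7, and with quantile normalization 9 of 10 and 6 of 7, so single genes of these lists, crp-10 among them, depend on the scaling. The counts for the tim, arg, cyt and tca lists were the same under each scaling, and that for glycolysis was 8 or 9 of 9. Clock genes and proton pumps had median differences of 0.01 and -0.004 log2 units as deposited, and the sign of both changed with the scaling. The part that the greater estimated depth of culture 1 has in these differences was not tested.

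**Figure D5:**
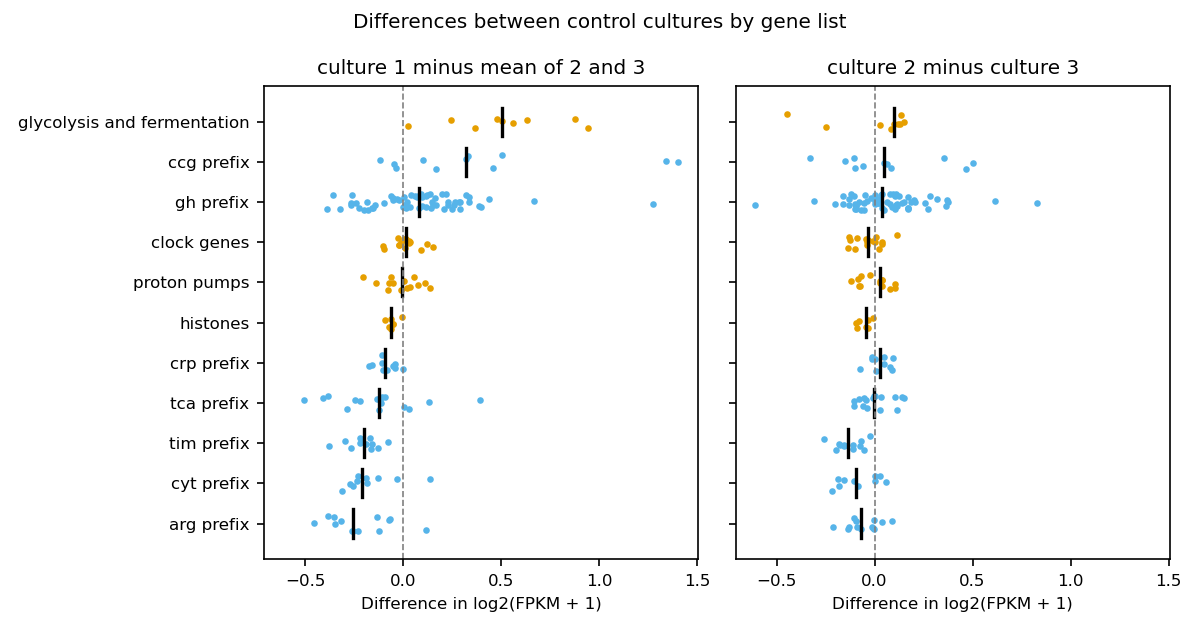
Differences in log2(FPKM + 1) for each gene with a mean of at least 1 FPKM in 11 lists, between culture 1 and the mean of cultures 2 and 3 (left) and between cultures 2 and 3 (right), with medians as black bars and a dashed line at 0. Glycolysis and fermentation genes lie at 0 or above on the left, with a median of 0.51, and tim and arg genes mostly below 0, with medians of -0.20 and -0.25.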

How the data were processed

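RNA of 3 control cultures was measured by paired-end sequencing (150 bp) of oligo(dT)-selected, directional libraries, per the labels' protocols. The deposited values are FPKM, made by the authors; STAR and Cuffnorm are named in the submitters' processing notes, with no version. Genome build, annotation, filters, use of strand and treatment of fragments matching several genes are not given in the sources used here. Depth is unknown, so no counting interval or floor is given.

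Columns were mapped to samples by the short names in the labels. Symbols, gene order and overlaps came from the NC12 gene annotation of RefSeq (9729 of 9730 locus tags matched, 1118 with a symbol); prd-2 was placed at NCU01019 from knowledge of the study. No coordinates or sequences are given. Means, SDs, CVs and ranks were computed with Python 3.11.15, numpy 2.4.6 and pandas 2.3.3, after a check on simulated data. No test was made, because 1 group has nothing to be tested against.

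Named genes were the 20 highest means, the 10 highest and 10 lowest CVs among means of at least 10 FPKM, genes with a symbol at 0 in all cultures, prd-2, ck-1a and members of 17 role lists. All 25 symbol prefixes (synonyms included) with at least 8 genes were described; 6 listed symbols (pgk-1, entered as pgk, and prd-1, mei-2, msh5, rec8 and dmc1) found no entry under that spelling. Members and lists were chosen with earlier results of these data known. Alternatives were other thresholds, pseudocounts and scalings, and leaving out each culture.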

Additional observations from a re-analysis of the deposited data

How the results depend on the processing

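Of the counts and shares, none moved beyond the spread between cultures, or beyond 1.5 times for counts, under the alternatives tried. The bound for counts is loose, since 7717 genes cannot rise by 1.5 times in a table of 9730. Leaving out a culture can only raise the counts of genes at 0 or at 1 FPKM in every culture. The stability of these counts was thus partly fixed in advance. Genes at the threshold in every culture numbered 8332 at 0.1 FPKM, 6628 at 5 FPKM and 7872 on the TPM scale (each culture rescaled to 1000000), and 7957 reached 1 FPKM in at least 1 culture. Without loci numbered NCU16000 or above, the 10 and 100 most abundant genes held 13.4% and 34.6%. Leaving out each culture gave 864 to 884 genes at 0, 7742 to 7768 at 1 FPKM, and shares of 13.3% to 13.9% for the 10 and 34.4% to 35.2% for the 100 most abundant genes. The median CV ranged from 4.04% without culture 1 to 6.50% without culture 2, and the median SD of log2(FPKM + 1) from 0.0542 without culture 1 to 0.0868 without culture 2, against 0.0857 with all 3 (0.0915 with a pseudocount of 0.1). A CV over 2 cultures runs lower than over 3, so the pairs are best compared with each other. The median CV was 5.62% to 7.20% under other filters and 6.33% to 6.64% under other scalings. The 20 most abundant genes were the same on the TPM scale, after quantile normalization and without culture 1 or 3, and 19 of 20 without culture 2. TPM scaling multiplies each culture by a constant, and quantile normalization keeps the order within each culture. Agreement of ranks under these 2 was therefore largely fixed in advance. Of 725 ranks of 145 named genes under alternatives, 41 moved by more than their spread, and of 210 median ranks of lists, 9. Of the 145 genes, 16, 7 and 12 moved without culture 1, 2 and 3, and 6 after quantile normalization. All 145 were the same on the TPM scale. The 9 moves of lists all came from leaving out a culture, with 5, 1 and 3 without culture 1, 2 and 3. Comparing pairs of cultures, the variable genes without culture 1 and the filter on the median (17 genes with a CV above 50% highest in culture 1, against 22) was chosen after seeing the data. No paired analysis was possible because the control cultures are described alone and no test was made. Depth is unknown, so low values rest on the spread between cultures.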

Other observations

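Several families not described above sit near the middle of the scale. The 20 pex genes, for building peroxisomes, had a median of 32.0 FPKM and all lay between 12.2 and 174 FPKM. The 12 rpn genes, for the regulatory particle of the proteasome, had a median of 83.3 FPKM and a median CV of 4.28%, and all 12 were higher in culture 2 than in culture 3, by a median of 0.07 log2 units, where 46.4% of the 7852 genes with a mean of at least 1 FPKM were higher in culture 2 and the median difference was -0.009 log2 units. The 10 ham genes, known for hyphal fusion, ran from 14.1 to 330 FPKM, and the 9 ro genes, of which several belong to the dynein and dynactin complexes, from 9.09 to 37.9 FPKM. The 10 cys genes, of sulphur metabolism, ran from 13.7 to 472 FPKM. Their lowest member, the sulphate permease gene cys-14, was also highest in culture 1, with 22.9 FPKM there and 9.39 and 8.85 FPKM in cultures 2 and 3.

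Lists with medians close to or under that of all genes were col, with 9.62 FPKM over 8 genes, set, with 10.4 FPKM over 9 genes, and the aerial regulators, with 1.95 FPKM over 3 genes. The un and mig prefixes had medians of 65.1 and 67.6 FPKM, and prk 36.9 FPKM. The het pair, het-c and het-6, known for incompatibility between strains, averaged 46.3 and 8.29 FPKM. Of the meiosis list, mei-3 averaged 19.2, msh4 3.84 and spo11 0.991 FPKM. One gene held a value above 0 but under 0.001 FPKM in a culture.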
